A study of Drosophila melanogaster with 7 samples.

Results

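Lysozymes are secreted enzymes that cut the sugar backbone of peptidoglycan, the polymer of the bacterial cell wall. In Drosophila, the chicken-type lysozymes of the Lys genes are known above all as digestive enzymes of the gut, where they break down the microbes that the fly eats with fermenting fruit. LysB, LysC, LysD and LysE are close copies that are known from the larval and adult midgut, LysS from the larval gastric caeca, LysX from the midgut at metamorphosis, and LysP from the adult salivary gland. In the midgut, mature enterocytes make the digestive enzymes, while intestinal stem cells (ISCs) and enteroblasts (EBs) are the progenitors that renew them.

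The genes described here are all those in the table of expression values whose FlyBase symbol is Lys followed by 1 capital letter. There were 7 such genes among 7608, namely LysX, LysB, LysC, LysD, LysE, LysP and LysS, and all 7 had a mean of at least 1 FPKM (read fragments scaled to the length of the gene model and to the mapped reads of the library) over the libraries and were tested. They were chosen by name and not by their values.

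The data are RNA-seq of Esg-GFP+ cells, which were sorted from elastase-digested midguts of adult flies at day 10 as intestinal progenitors. The 4 libraries labelled wild type came from the line Esg-GFP, a GFP trap in the gene of the transcription factor Esg, and the 3 libraries labelled Sox21a-/- from Esg-GFP; Sox21a-/- flies, so all 7 carry the GFP trap. Many guts were pooled for a sort, w1118 midguts set the fluorescence gate, and cells of other types that passed this gate would be in the libraries too. Deletion alleles JC1 and JC2 of Sox21a, a Sox family transcription factor, were made for the study, and which of them was sequenced is not given in the sources used here.

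The files hold FPKM only, and the steps between the lowest values gave about 8452783 to 10554815 reads per library. Of all values, 25.7% were exactly 0, and an exact 0 in such a table can be a failed estimate, since 39 of 58 ribosomal protein genes were also at 0 in at least 1 library. Sox21a itself was listed at 0 FPKM in wild type replicates 1 and 2, at 230.4 FPKM in replicate 3 and at 233 FPKM in replicate 4. The 3 Sox21a-/- libraries had it at 96.3, 50.6 and 0 FPKM. With zeros kept the groups overlapped and the limma difference was 0.17 on the log2 scale (adjusted p = 0.977). With zeros treated as missing, the 2 wild type libraries above 0 lay above the 2 Sox21a-/- libraries above 0, and the difference was -1.72 (limma adjusted p = 0.0347). Sox21a was thus lower in Sox21a-/- only among the libraries above 0, 2 in each group, and does not settle the labels. The study reports that both deletions remove almost all of the coding region. The source of the Sox21a values in Sox21a-/- replicates 1 and 2 was not tested. The names of the groups are used below as given. The progenitor markers esg and Dl are not analysed here. Of the 4 progenitor markers tested with zeros kept, 3 had a difference above 0, as did 51.5% of all genes, and the median was 0.37. Only the EB transcription factor gene klu passed, and it was lower in Sox21a-/- (log2 difference of -1.66, limma adjusted p = 0.0388). Of all genes tested, 1.05% passed lower. N differed by 0.58, or by -0.27 with zeros treated as missing. Sox100B had the largest rise (2.86, limma adjusted p = 0.622) and was above 0 in Sox21a-/- replicate 3 alone. It met the filter through that library, so its difference could only be above 0. The libraries also held RNA that is not typical of progenitors, such as the enteroendocrine hormone gene NPF at 3989 to 9268 FPKM in wild type.

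The lysozyme genes lie together on the left arm of chromosome 3. In the BDGP6 annotation all 7 fall within 33.5 kb of chromosome 3L, each as 1 exon with no intron. From left to right, LysX (FBgn0004431) is at 1194739 to 1195302 on the minus strand, LysB (FBgn0004425) at 1207371 to 1207981 on the plus strand, LysC (FBgn0004426) at 1210485 to 1210726 on the plus strand, and LysD (FBgn0004427) at 1210717 to 1211196 on the minus strand. They are followed by LysE (FBgn0004428) at 1212827 to 1213406 on the plus strand, LysP (FBgn0004429) at 1218082 to 1218696 on the minus strand, and LysS (FBgn0004430) at 1227747 to 1228238 on the plus strand. The 6 protein-coding genes encode precursors of 140 to 142 amino acids, and LysC is annotated as a pseudogene of 242 bp. LysC and LysD overlap by 10 bases on opposite strands, and 6 of the genes, all but LysX, lie within the span of mwh (1200786 to 1232700). The library kit named in the labels does not mark the strand, and how reads that match several copies were divided is not given in the sources used here. The values of LysB, LysC, LysD and LysE are therefore uncertain as values of single genes, and reads of LysC and LysD in their shared bases cannot be told apart.

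LysD, LysB and LysE had higher FPKM than LysX, LysP and LysS in each library in which they were above 0. For these 3 and for LysC, each value above 0 in Sox21a-/- was higher than each value in wild type. LysS values above 0 were also higher in each Sox21a-/- library than in each wild type library. LysP was listed at 0 in all 4 wild type libraries and above 0 in all 3 Sox21a-/- libraries. LysX overlapped between the Sox21a-/- and the wild type libraries. Of the 49 lysozyme values, 12 were listed at 0, so the tests are given with these zeros kept and with them left out.

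**Figure D1:**
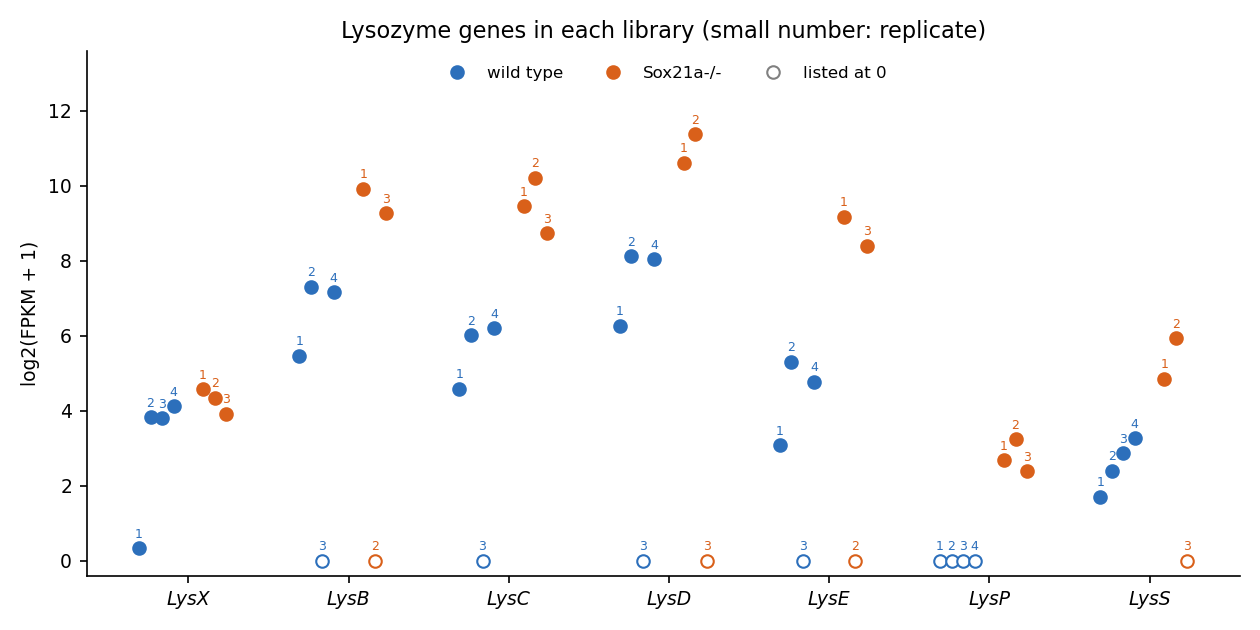
Level of each lysozyme gene in each library, as log2(FPKM + 1), for 4 wild type (blue) and 3 Sox21a-/- (orange) libraries. Open circles are values listed at 0 and small numbers are replicates. The filled orange points lie above the filled blue points for LysB, LysC, LysD, LysE and LysS, while LysX overlaps.

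LysD, a midgut lysozyme, had the highest FPKM of the protein-coding lysozyme genes. It stood at 76.1, 277, 0 and 262 FPKM in the 4 wild type libraries, in order of replicate. In Sox21a-/- replicates 1 to 3 it stood at 1571, 2664.5 and 0 FPKM. Both groups thus had a library at 0, and the other libraries did not overlap, with wild type replicate 1 the lowest of them. The mean over the libraries above 0 was 2118 ± 773 FPKM (SD, n = 2) in Sox21a-/- and 205 ± 112 FPKM (SD, n = 3) in wild type, a ratio of 10.3. Over all libraries, zeros included, the ratio was 9.18, and 5.10 without Sox21a-/- replicate 2. The highest wild type value rests on about 817.6 reads and the highest Sox21a-/- value on about 7884.

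LysB, its neighbour on the left, followed the same order at a lower level. It was listed at 43.1, 158, 0 and 142 FPKM in the 4 wild type libraries, in order of replicate. In Sox21a-/- it was listed at 967, 0 and 616 FPKM. Wild type replicate 3 was at 0 for LysB as for LysD, but the Sox21a-/- library at 0 was replicate 2 here and replicate 3 for LysD. Among the libraries above 0 the groups did not overlap, with means of 791 ± 249 FPKM (SD, n = 2) and 114 ± 62.1 FPKM (SD, n = 3), a ratio of 6.93. Over all libraries the ratio was 6.16, and without Sox21a-/- replicate 1 or 2 it was 3.59 or 9.23.

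LysE is the next gene to the right of LysD. It was listed at 7.43, 38.5, 0 and 26.4 FPKM in the 4 wild type libraries, in order of replicate. In Sox21a-/- it was listed at 575, 0 and 338 FPKM. Its zeros fell in the same libraries as those of LysB, and the libraries above 0 did not overlap. Their means were 456 ± 167 FPKM (SD, n = 2) in Sox21a-/- and 24.1 ± 15.7 FPKM (SD, n = 3) in wild type, a ratio of 18.9. Over all libraries the ratio was 16.8, and it was 9.34 without Sox21a-/- replicate 1. Leaving out wild type replicate 2 gave 27.0, and leaving out Sox21a-/- replicate 2 gave 25.2.

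LysC, the annotated pseudogene, was the only one of these 4 close copies with a value above 0 in every Sox21a-/- library. It was listed at 23.1, 63.9, 0 and 72.8 FPKM in the 4 wild type libraries, in order of replicate. In Sox21a-/- it was listed at 697, 1189 and 425 FPKM. Each Sox21a-/- library lay above each wild type library, with or without wild type replicate 3 at 0. The means above 0 were 770 ± 387 FPKM (SD, n = 3) and 53.3 ± 26.5 FPKM (SD, n = 3), a ratio of 14.5, or 19.3 over all libraries. The length of the LysC model that the authors used is not known here, so its level is not ranked among those of the other genes and no read number is given for it.

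LysS, at the right end of the cluster, was weaker. It was listed at 2.27, 4.26, 6.30 and 8.65 FPKM in the wild type libraries, or about 7.0 to 22.2 reads. In Sox21a-/- it was listed at 28.0, 60.2 and 0 FPKM, or about 69.3, 185.7 and 0 reads. The 2 Sox21a-/- libraries above 0 lay above all 4 wild type libraries, and replicate 3 lay below them. The mean of these 2 libraries was 44.1 ± 22.8 FPKM (SD), against 5.37 ± 2.73 FPKM (SD, n = 4) in wild type, a ratio of 8.21. Over all libraries the ratio was 5.47, and 2.61 without Sox21a-/- replicate 2.

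LysP, which is known from the salivary gland, was listed at 0 in all 4 wild type libraries. In Sox21a-/- replicates 1 to 3 it was listed at 5.40, 8.46 and 4.21 FPKM, or about 19.0, 37.1 and 16.0 reads. The groups did not overlap, and no fold is given because the wild type libraries were listed at 0. Of the other salivary gland markers chosen, Sgs3 and Amyrel, neither is in the table, so no salivary gland level is given beside LysP.

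LysX, which lies apart from the others outside the span of mwh, was the 1 lysozyme gene with no value at 0. It was listed at 0.260, 13.1, 12.9 and 16.4 FPKM in the wild type libraries, or about 1.0, 50.3, 41.2 and 52.3 reads. In Sox21a-/- it was listed at 22.7, 19.3 and 14.1 FPKM. Wild type replicate 1 was far below all other libraries, and Sox21a-/- replicate 3 lay below wild type replicate 4, so the groups overlapped. The means were 18.7 ± 4.33 FPKM (SD, n = 3) in Sox21a-/- and 10.7 ± 7.11 FPKM (SD, n = 4) in wild type, a ratio of 1.76, or 1.32 without wild type replicate 1.

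In wild type replicates 1, 2 and 4 the FPKM fell in the order LysD, LysB and LysE, and Sox21a-/- replicate 1 had the same order. Across libraries the wild type ranges of LysD and LysB overlapped, while LysE (at most 38.5 FPKM) stayed below LysB (at least 43.1 FPKM above 0). In the weaker pair both orders occurred in both genotypes. LysX was above LysS in wild type replicates 2, 3 and 4 and in Sox21a-/- replicate 3, where LysS was at 0, and below it in wild type replicate 1 and Sox21a-/- replicates 1 and 2. These differences between genes were not tested.

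**Figure D2:**
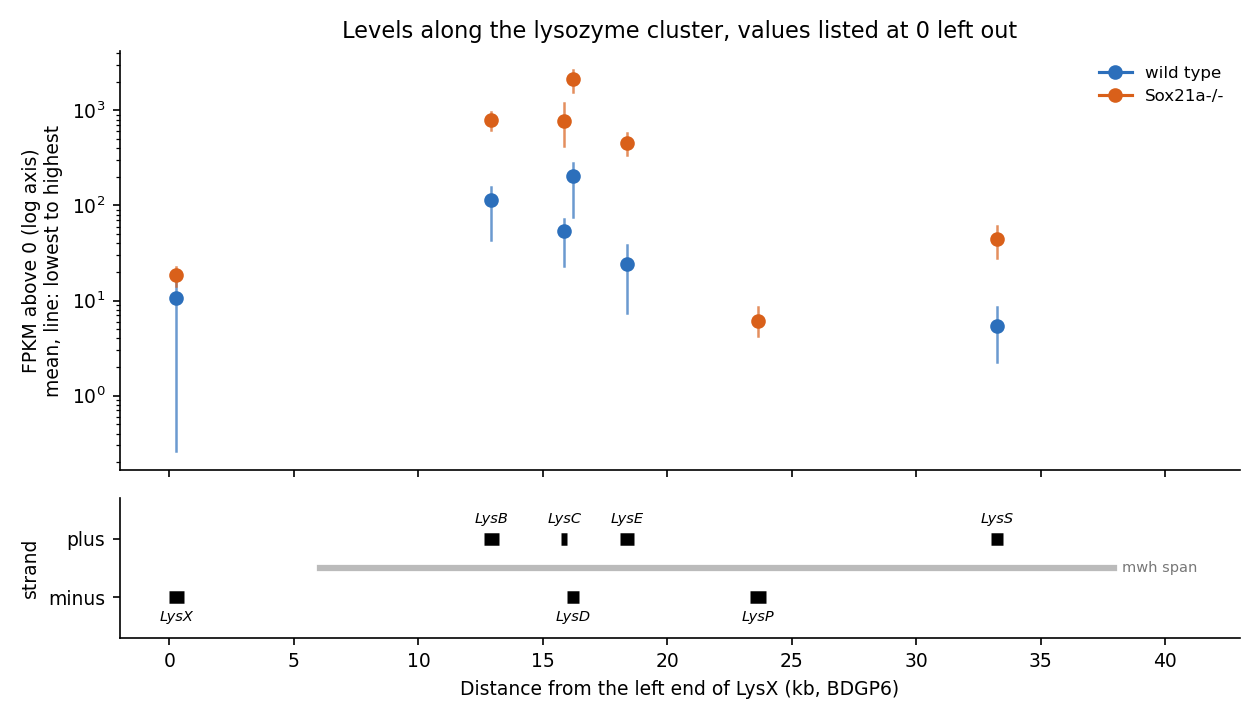
Upper panel, mean FPKM over the libraries above 0 (log axis; lines from the lowest to the highest library) at the place of each lysozyme gene, in wild type (blue) and Sox21a-/- (orange). Lower panel, the 7 genes by strand and the span of mwh, with distance in kb from the left end of LysX in BDGP6. The ranges of both genotypes stay apart for LysB, LysC, LysD, LysE and LysS and overlap for LysX, and LysP has no wild type point because it was listed at 0 there.

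The question put to a test was whether each gene differed between wild type and Sox21a-/- beyond the spread between libraries. In a limma fit of log2(FPKM + 1) over all genes averaging 1 FPKM or more and with zeros kept as values, 160 of 6565 genes (2.44%) passed an adjusted p of 0.05, 91 of them (1.39%) higher in Sox21a-/-. All 7 lysozyme differences were above 0, as were 51.5% of all differences, and their median was 1.73, against 0.04 over all genes tested. This count and median include LysP, whose difference could only be above 0. LysP had a difference of 2.77 ± 0.31 SE (limma adjusted p = 0.00995), but it met the filter on mean FPKM through the Sox21a-/- libraries alone and was set against wild type libraries that were all at 0 and had no spread. That value depends on the pseudocount, is no measure of fold and is given as a description only. None of the other 6 genes passed. LysC had the largest difference, 5.26 ± 1.59 SE, and did not pass (limma adjusted p = 0.243). The other 5 genes had differences of 1.04 to 2.57 with limma adjusted p between 0.622 and 0.879. For LysB, LysD and LysE the SE, at 2.58 to 3.47, was larger than the difference.

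By the criteria given in the study's methods, P of at most 0.05 and a fold of at least 2 on this scale, LysC and LysP were higher, as were 438 of the 6565 genes (6.67%), and no lysozyme gene was lower, as were 264 genes (4.02%). LysC and LysP were also the lysozyme genes whose groups did not overlap with zeros kept as values, which held for 638 of the 6565 genes (9.72%) with Sox21a-/- higher. In the exact permutation test over the 35 ways to place 4 and 3 libraries, two-sided, LysC had p = 0.0286, the smallest p that 4 against 3 libraries allow, and LysP had the same p with all 4 wild type libraries at 0. The exact p of the other 5 genes was between 0.286 and 0.6. LysP met the filter through Sox21a-/- alone, and its wild type libraries were all at 0. Its call by P and fold, its lack of overlap and its exact p are therefore a description only.

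With zeros treated as missing, where the fit of a gene drops each library in which it is at 0, 613 of 4912 genes (12.5%) passed an adjusted p of 0.05, 344 of them (7.0%) higher in Sox21a-/-. LysB, LysC, LysD, LysE and LysS passed, LysX did not, and LysP could not be fitted. The log2 difference was 2.95 ± 0.60 SE for LysB (limma adjusted p = 0.0300) and 3.86 ± 0.53 SE for LysC (limma adjusted p = 0.00484). It was 3.52 ± 0.62 SE for LysD (limma adjusted p = 0.0190) and 4.40 ± 0.68 SE for LysE (limma adjusted p = 0.0126). LysS differed by 2.83 ± 0.48 SE (limma adjusted p = 0.0109) and LysX by 1.26 ± 0.87 SE (limma adjusted p = 0.375). The median of the 6 was 3.24, against -0.04 over all genes in this fit. For the same 5 genes the values above 0 did not overlap, as was the case for 822 of the 4912 genes (16.7%) with Sox21a-/- higher and 1053 (21.4%) with Sox21a-/- lower.

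**Figure D3:**
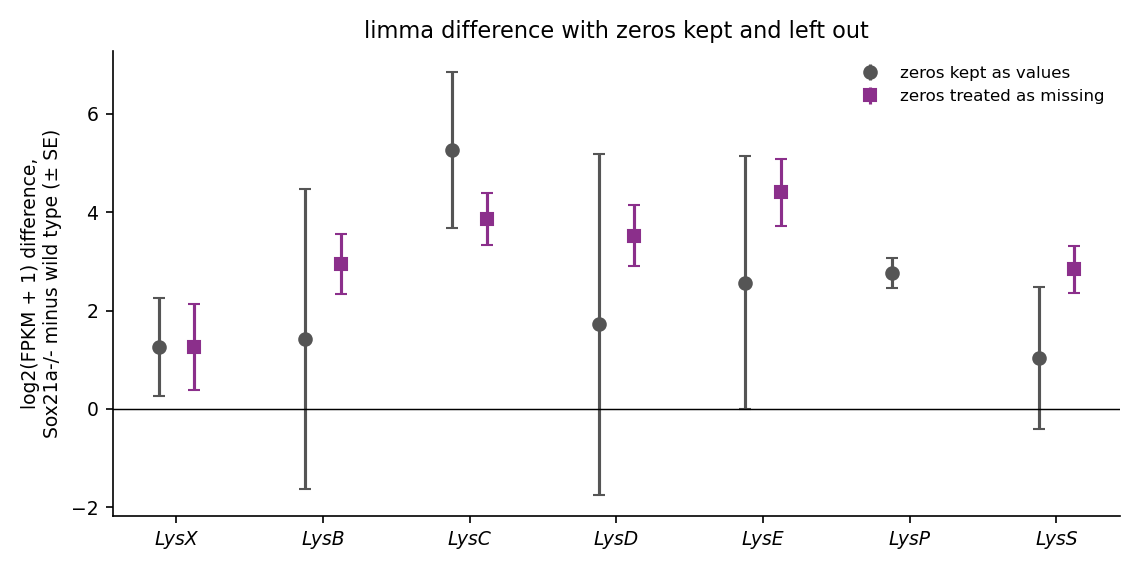
Difference between Sox21a-/- and wild type of each lysozyme gene on the log2(FPKM + 1) scale, from limma, with zeros kept as values (grey circles) and treated as missing (purple squares). Bars are ± 1 SE. With zeros kept, the bars of LysB, LysD, LysE and LysS reach 0, and with zeros missing LysB, LysC, LysD, LysE and LysS lie between 2.83 and 4.40.

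These 5 calls rest on 2 to 4 libraries a group. LysC kept its call when any 1 of the 7 libraries was left out of this fit (limma adjusted p of 0.00417 to 0.0316). LysB lost it without wild type replicate 2 (limma adjusted p = 0.0529), wild type replicate 4 (0.0679), Sox21a-/- replicate 1 (0.152) or Sox21a-/- replicate 3 (0.0786). LysD lost it without Sox21a-/- replicate 1 (limma adjusted p = 0.0736) or 2 (0.0872), LysE without wild type replicate 4 (0.0508) or Sox21a-/- replicate 1 (0.0814), and LysS without Sox21a-/- replicate 2 (0.0626). The differences in these fits stayed between 2.30 and 4.86. For LysX the difference fell to 0.37 without wild type replicate 1.

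The zeros of the lysozyme genes were not spread evenly over the libraries. Wild type replicate 3 had 5 of its 7 lysozyme values at 0, and only LysX and LysS were above 0 there. Wild type replicates 1, 2 and 4 had 1 each, that of LysP. Sox21a-/- replicate 1 had none, replicate 2 had LysB and LysE at 0, and replicate 3 had LysD and LysS at 0. Wild type replicate 3 did not stand out in its share of zeros over all genes, which lay between 23.0% and 28.5% in the 7 libraries. Its closest library was wild type replicate 4, which had LysB, LysC, LysD and LysE at 142, 72.8, 262 and 26.4 FPKM.

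The ratios between the close copies differed between the genotypes where both copies were above 0. LysE was 0.172 to 0.245 of LysB in 3 wild type libraries and 0.549 to 0.594 in 2 Sox21a-/- libraries. LysC was 0.231 to 0.304 of LysD in 3 wild type libraries and 0.443 to 0.446 in 2 Sox21a-/- libraries. In both pairs the ranges of the ratio did not overlap and were higher in Sox21a-/-. The size of the LysC ratio depends on the unknown length of its model, so only its change between libraries can be read. LysB relative to LysD was steadier, at 0.542 to 0.568 in wild type and 0.616 in Sox21a-/- replicate 1. These ratios were chosen after the values were seen and were not tested, and a different division of shared reads in each library would move them.

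Digestive enzyme genes, which enterocytes express, were set beside the lysozyme genes. Of 49 genes of digestive proteases, maltases, mannosidases and lipases, 47 were tested, 33 had a difference above 0, 5 passed higher in the limma fit with zeros kept and none lower, and the median log2 difference was 1.13. With zeros treated as missing 19 of 37 passed higher and none lower, and the median was 2.0. Over all genes tested, 51.5% had a difference above 0 and 1.39% passed higher with zeros kept, and 7.0% passed higher with zeros missing. The 5 were the glucosidase-like gene tobi (4.69, limma adjusted p = 0.00578), lambdaTry (2.26, 0.0388), kappaTry (2.11, 0.0481), Mal-A3 (1.65, 0.0402) and LManII (1.54, 0.0360), and Amy-p had the largest fall (-4.57), with an adjusted p of 0.371. The genes tobi, CG31091, Jon65Aii and LManIV met the filter through Sox21a-/- alone, with wild type means of 0.478 to 0.813 FPKM. Their place in these counts, and the call of tobi, are a description only. Over the 18 enterocyte markers, all in the table, the summed FPKM was 1032 to 4729 in wild type against 2314 to 15872 in Sox21a-/-, and Myo31DF, Amy-p and Amy-d were at 0 in all 3 Sox21a-/- libraries and in 2, 1 and 2 of the 4 wild type libraries. In these bulk samples fewer or more cells of a type and less or more RNA per cell cannot be told apart, and the part of enterocyte RNA in the lysozyme results was not tested.

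As a description, chosen after the values were seen, each lysozyme gene was divided by the geometric mean of the 26 digestive enzyme genes that were at 0 in no library. That mean was 4.07, 14.0, 12.9 and 13.1 FPKM in the wild type libraries in order of replicate. In the Sox21a-/- libraries it was 42.5, 51.5 and 31.1 FPKM. It was lowest in wild type replicate 1, where LysB, LysC, LysD, LysE, LysS and LysX also had their lowest values above 0. Relative to it, LysD was at 18.7 to 20.0 in 3 wild type libraries and at 37.0 to 51.8 in 2 Sox21a-/- libraries. LysB was at 10.6 to 11.2 in wild type and at 19.8 to 22.8 in Sox21a-/-. The wild type spread of both genes was narrow on this scale, while their FPKM was several times higher in replicates 2 and 4 than in replicate 1.

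LysC was at 4.56 to 5.68 of the enzyme mean in 3 wild type libraries and at 13.7 to 23.1 in 3 Sox21a-/- libraries. LysE was at 1.83 to 2.75 in 3 wild type libraries and at 10.9 to 13.5 in 2 Sox21a-/- libraries. The close copies thus stayed above wild type on this scale as well. LysS overlapped, at 0.304 to 0.660 in wild type against 0.659 to 1.17 in 2 Sox21a-/- libraries. LysX had the other order, at 0.935 to 1.25 in wild type replicates 2, 3 and 4 and at 0.375 to 0.535 in Sox21a-/-, with wild type replicate 1, at about 1.0 read, the exception at 0.0639. Among the 26 enzymes the ratio of Sox21a-/- to wild type mean FPKM was 1.05 to 62.5 with a median of 3.57. Only tobi had a ratio above the 14.5 of LysC, and its wild type mean was 0.813 FPKM.

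**Figure D4:**
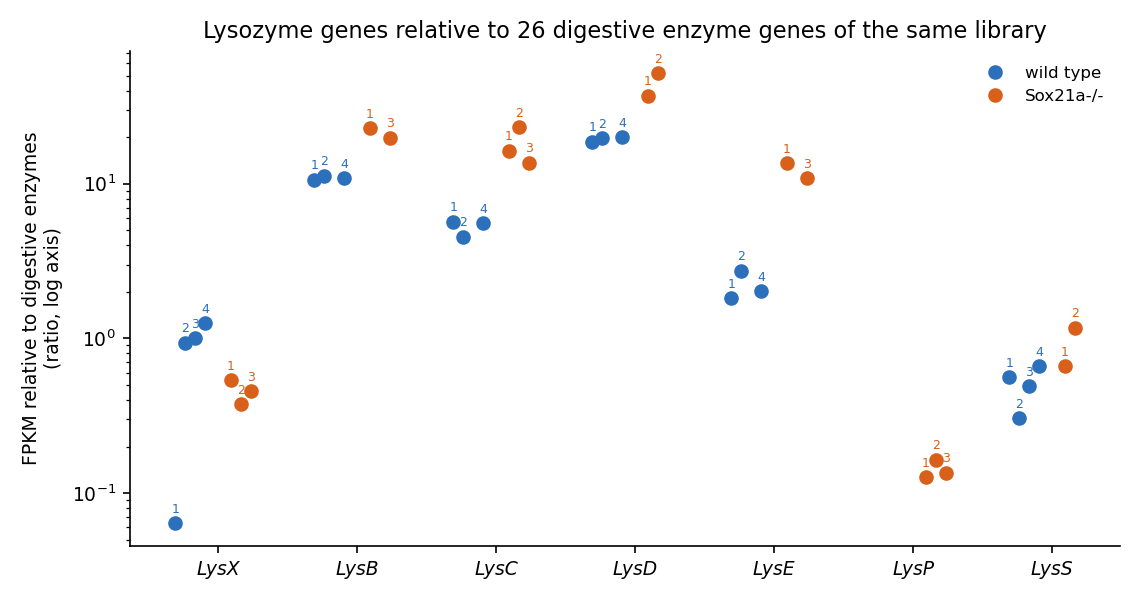
FPKM of each lysozyme gene divided by the geometric mean of 26 digestive enzyme genes of the same library (log axis), with values listed at 0 left out. LysB, LysC, LysD and LysE are higher in Sox21a-/- (orange) than in wild type (blue) on this scale, LysS overlaps, and LysX is lower in Sox21a-/- than in wild type replicates 2, 3 and 4.

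Markers of other cell types were checked beside the lysozyme genes. The summed FPKM of 5 hemocyte markers was 2.63 to 133 in wild type against 144 to 201 in Sox21a-/-, with none of the 5 passing the limma test, the largest rise in vkg (2.06, limma adjusted p = 0.330) and the smallest in Col4a1 (1.63, limma adjusted p = 0.397). Hemocytes are the blood cells of the fly and secrete collagen, which vkg and Col4a1 encode. The genes vkg, NimC1 and Pxn met the filter through Sox21a-/- alone, with wild type means of 0.257, 0.384 and 0.0667 FPKM. Their differences are a description only. Sox21a-/- replicate 2 stood apart, with vkg at 18.8, Col4a1 at 33.1, NimC1 at 15.0 and Pxn at 11.6 FPKM, against at most 2.23, 5.40, 2.01 and 1.87 FPKM in the other 2 Sox21a-/- libraries, and it also had the highest values of LysC, LysD, LysP and LysS. Most of the sum came from the scavenger receptor gene crq, which was listed at 0 in wild type replicate 1 and at 111 to 141 FPKM in the other 6 libraries. The summed level of 5 middle midgut markers was 313 to 578 FPKM in wild type against 366 to 2210 FPKM in Sox21a-/-, that of 8 enteroendocrine markers 4518 to 28603 and 8693 to 35601 FPKM with Tk at 0 in all libraries but wild type replicate 3, and that of 5 fat body markers 40.7 to 174 and 51.5 to 212 FPKM. Visceral muscle markers were low in both, at 0.98 to 7.94 and 2.58 to 5.33 FPKM for 2 genes. The ranges of the sums overlapped for each of these lists but that of hemocytes. Single abundant genes weigh heavily in the sums, such as MtnA at 1645 FPKM in Sox21a-/- replicate 1. No middle midgut or enteroendocrine marker passed with zeros kept. The middle midgut gene lab had a difference of -0.92 (limma adjusted p = 0.334). It was lower in each Sox21a-/- library (7.64 to 12.6 FPKM) than in each wild type library (13.2 to 34.1 FPKM). With zeros missing, 21.4% of all genes did not overlap with Sox21a-/- lower. With zeros missing, Vha100-4 (2.04, limma adjusted p = 0.0383), CAH7 (0.62, 0.0393) and CCHa2 (2.55, 0.0018) were higher and Mip lower (-4.58, 0.000658). In that fit lab (-0.92, limma adjusted p = 0.0789) and MtnB (-0.11, 0.710) did not pass, and 12.5% of all genes passed. The part of these cells in the lysozyme results was not tested.

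Genes of other lysozymes and of peptidoglycan recognition were set beside the family. Of 11 other lysozyme genes 4 were in the table, at 1.32 to 4.65 FPKM summed in wild type and 3.33 to 5.0 FPKM in Sox21a-/-. CG16799 was tested and did not pass (0.99 ± 0.46 SE, limma adjusted p = 0.434), and CG6426, CG30062 and CG16756 were below the filter with values of at most 1.34 FPKM. None of these 4 reached the levels of LysB to LysE.

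The peptidoglycan recognition proteins bind peptidoglycan, and some of them cut it. All 8 in the table had a difference above 0, as did 51.5% of all genes tested. Their median was 1.90, and none passed an adjusted p of 0.05 with zeros kept. Among them PGRP-SB1, with a wild type mean of 0.990 FPKM, met the filter through Sox21a-/- alone. PGRP-SC2, a secreted amidase of the gut, was listed at 6.67, 61.4, 92.0 and 96.8 FPKM in wild type. In the Sox21a-/- libraries it reached 176, 298 and 153 FPKM. PGRP-SC1a and PGRP-SC1b, its close relatives, were at 0 in wild type replicate 1, at 4.45 to 15.8 FPKM in the other wild type libraries and at 23.4 to 39.8 FPKM in Sox21a-/-. The groups did not overlap for these 3 amidases, as also for PGRP-SD and PGRP-LE. With Sox21a-/- higher, this was so for 9.72% of all genes tested. PGRP-LE differed by only 0.16. Wild type replicate 1 was again the lowest or at 0 for PGRP-SC1a, PGRP-SC1b, PGRP-SC2 and PGRP-SD. With zeros treated as missing, PGRP-SC1a (1.53, limma adjusted p = 0.0177) and PGRP-SC1b (1.61, limma adjusted p = 0.0232) passed, and 7.0% of all genes passed higher. PGRP-LB, PGRP-LF and PGRP-SB1 overlapped, with differences of 1.67, 0.42 and 0.50.

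The Imd pathway, which turns bound peptidoglycan into transcription of antibacterial peptide genes, had 10 of 12 genes in the table. None passed with zeros kept, and the median difference was -0.30. Rel, its NF-kappaB factor, had the lowest difference (-2.34, limma adjusted p = 0.698) through a 0 in Sox21a-/- replicate 2. It was the 1 of 7 that passed with zeros treated as missing (1.0, limma adjusted p = 0.0222), where 7.0% of all genes passed higher. The inhibitor pirk had the highest (6.68, limma adjusted p = 0.295) and was at 0 in 3 wild type libraries. Of the antibacterial peptides 12 were tested. All 12 had a difference above 0, as did 51.5% of all genes tested, and the median was 1.74. Of these, DptA, DptB, Dro and Drsl5 met the filter through Sox21a-/- alone, with wild type means of 0.191 to 0.791 FPKM. The count and the median are therefore a description only. For several of them Sox21a-/- replicate 2 was far above the other 2 Sox21a-/- libraries, with CecC at 294 FPKM against 15.5 and 4.77, Mtk at 136 against 3.21 and 4.46, CecB at 114 against 2.89 and 1.07, and DptB at 57.7 against 0.475 and 0.879. AttD, an attacin, was the 1 of these 12 that passed with zeros kept, where 1.39% of all genes passed higher. It was listed at 1.57, 5.27, 9.90 and 0 FPKM in wild type, against 380, 261 and 296 FPKM in the mutant libraries (6.41, limma adjusted p = 0.0190), and Drsl3 had the lowest difference (0.35, limma adjusted p = 0.774).

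Of 21 other genes within 50 kb of a lysozyme gene, 9 were in the table and 8 tested. With zeros kept none passed, 5 had a difference above 0, and the median difference was 0.42. Their difference from the lysozyme genes was not tested. Psf1, which encodes a subunit of the replication complex GINS, was lower in each Sox21a-/- library (5.39 to 8.57 FPKM) than in each wild type library (9.49 to 12.6 FPKM), with a difference of -0.58 (limma adjusted p = 0.388). CG33965 was higher in each Sox21a-/- library (2.74 to 5.14 FPKM) than in each wild type library (0.749 to 2.65 FPKM), as was meep (1.74 to 2.48 against 1.17 to 1.72 FPKM), and neither passed. With zeros kept, 9.72% of all genes tested did not overlap with Sox21a-/- higher. With zeros missing, 4 of 8 neighbours did not overlap with Sox21a-/- higher, as was the case for 16.7% of all genes in that fit. CG33966 passed with zeros treated as missing (1.42, limma adjusted p = 0.0218), where 7.0% of all genes passed higher. With a wild type mean of 0.659 FPKM, CG33966 met the filter through Sox21a-/- alone, so its call is a description only. CG13912 and CG9119 had a 0 in each group, Klp61F a 0 in wild type replicate 3, bab2 was below the filter, and the values of CG32318 overlapped. The gene mwh, whose span holds 6 of the lysozyme genes, is not analysed here.

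The genes whose pattern over the 7 libraries was most like that of a lysozyme gene were found by Pearson's r of log2(FPKM + 1), as a description over libraries that share 2 genotypes. Among 2459 genes tested and at 0 in no library, those most like LysX were CG16775 (r = 0.983), CG31041 (0.978), the protease gene Jon25Biii (0.971), CG8560 (0.970) and AANATL2 (0.965). These values lean on wild type replicate 1, without which r was 0.719, 0.771, 0.771, 0.500 and 0.880 in the same order. Among all 6564 other genes tested, LysP was most like tobi (0.997), followed by Tps1, Nt5a, CG2680 and CG13075, which like LysP were at 0 in all 4 wild type libraries.

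LysC was most like the maltase gene Mal-A4 (r = 0.995), then CG18547 (0.962), CG30016, nebu and SPARC. LysS was most like the mannosidase gene LManIV (0.962), then CG6959 (0.962), CG31997, Nse1 and Alp4. For LysB, the genes CG14961 (0.970), LysE (0.969), Orct2, mAcon1 and eca were at 0 in the same 2 libraries as LysB, and for LysD, the genes CG15422 (0.982), pinta (0.977), CG3740, FBgn0038347 and CG12375 shared both of its zeros. LysE was most like lectin-28C (0.978), with LysB, Nep2, CG32544 and CG2681 after it, of which only lectin-28C shared 1 and not 2 zeros. Zeros were shared in the lists of LysC and LysS too, where Mal-A4, nebu and SPARC were at 0 where LysC was, and LManIV, CG6959, CG31997 and Alp4 where LysS was. The r of each pair with a shared zero includes libraries in which both genes were listed at 0.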

How the data were processed

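Groups and replicate numbers of the RNA-seq libraries were taken from the labels. The authors mapped reads to Release 5 (BDGP5) with TopHat2 2.0.10 and computed FPKM with Cufflinks 2.2.1, and these deposited FPKM values are the only values used. Treatment of reads that match several places, any scaling between libraries and the choice of genes in the table are not given in the sources used here. The BDGP6 annotation gave positions, and 7339 of 7608 gene IDs matched it. Reads per library were recovered from exon models of at least 500 bases, whose lowest FPKM values, once multiplied by the exon length less 199 bases, are whole multiples of 1 read. This rested on 18 to 54 genes a library, and 75.3% to 78.4% of low values came within 0.1 of a whole read, so reads per gene are approximate.

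limma 3.58.1 in R 4.3.3 (trend and robust) was fitted two-sided to log2(FPKM + 1), without covariates, for 6565 genes (filter, mean of 1 FPKM or more), with Benjamini-Hochberg adjustment over all of them. The pseudocount of 1 makes differences of weak genes too small. The fit was tested on simulated data. The methods name biological replicates for 3 libraries a group without saying which 3 of the 4 wild type libraries, and p-values measure the spread between these libraries. The squared difference between replicates 3 and 4 of wild type was 1.39 times the variance of read counting, as a median over genes (r = 0.991). It was 3.10 to 6.27 times this variance for other pairs of wild type libraries, and 2.16 times for Sox21a-/- replicates 1 and 3. Whether replicates 3 and 4 of wild type came from separate preparations was not tested. The main limma fit and the exact test count them as 2 libraries. Python 3.11.15 with numpy 2.4.6, pandas 2.3.3 and matplotlib 3.10.9 was used for the rest.

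The genes named are all lysozyme genes, Sox21a, every other lysozyme gene, peptidoglycan recognition protein and neighbour in the table, and the 5 genes most like each lysozyme gene. Of other lists those called are named, and for some of them the largest rise and fall. The lysozyme genes and the lists were chosen with earlier results of these data known. Other settings tried were a pseudocount of 0.1 or 0.01, the whole table or a filter at 5 FPKM, quantile and median-ratio scaling, limma without trend and robust, zeros as missing, each library left out and the replicate number as a block. Averaging wild type replicates 3 and 4, and leaving out libraries with zeros as missing, were added after seeing the data.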

Additional observations from a re-analysis of the deposited data

Results flagged for a closer look

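Over 28 genes (the lysozyme genes, other lysozymes, peptidoglycan recognition proteins and neighbours), 4 had 1 wild type library far from the other 3 on the log2(FPKM + 1) scale, by Dixon's criterion for 4 values, and none on the FPKM scale. LysX stood at 0.260 FPKM in wild type replicate 1, with a gap of 0.915 of the range. PGRP-SD was listed at 0 FPKM in wild type replicate 1 (0.935), and PGRP-LB (0.885) and CG9119 (0.906) were listed at 0 FPKM in wild type replicate 2. Chance flags about 1 in 20 groups, and the last 3 are exact zeros.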

How the results depend on the processing

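With zeros kept as values, the differences of LysB, LysD and LysS changed sign with single libraries. Leaving out each library in turn gave log2 differences of -0.35 to 4.61 for LysB, -0.30 to 5.39 for LysD, -0.13 to 2.83 for LysS, 0.91 to 5.50 for LysE, 3.86 to 5.93 for LysC, 2.53 to 2.96 for LysP and 0.37 to 1.63 for LysX. The sign turned for LysB without wild type replicate 3 (-0.25), Sox21a-/- replicate 1 (-0.35) or 3 (-0.02), for LysD without wild type replicate 3 (-0.14) or Sox21a-/- replicate 2 (-0.30), and for LysS without Sox21a-/- replicate 2 (-0.13) and with a pseudocount of 0.01 (-0.91). These were the libraries in which the gene was above 0 in a group with a 0, or at 0 itself. With zeros as missing LysB (2.95), LysC (3.86), LysD (3.52), LysE (4.40) and LysS (2.83) passed. Averaging wild type replicates 3 and 4 let LysC pass (4.19, limma adjusted p = 0.0391). LysP went from 2.77 to 5.88 and 9.18 with pseudocounts of 0.1 and 0.01, with a limma adjusted p of 0.0116 to 0.0287 without each library in turn. A mean of at least 5 FPKM and zeros as missing gave no value for LysP. The scalings and limma without trend and robust turned no sign.

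Same-numbered libraries did not deviate together in each pair (correlations of -0.003, 0.37 and 0.20), so the replicate block is an alternative only. With the replicate block LysP no longer passed (2.77, limma adjusted p = 0.296), and LysX was at 1.63, LysB at 2.14, LysC at 5.93, LysD at 2.54, LysE at 3.06 and LysS at 1.27. It left 1 gene higher and 2 lower in the whole table at an adjusted p of 0.05, and 150 lower by P and fold.

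Over the whole table, 91 genes higher became 59 with a mean of at least 5 FPKM, 344 with zeros as missing and 51 with wild type replicates 3 and 4 averaged, and 69 lower became 269 with zeros as missing. By P and fold, 438 higher became 257 with a mean of at least 5 FPKM, and 264 lower became 149 with zeros as missing. Without each library in turn, 75 to 125 were higher and 49 to 100 lower by adjusted p, and 325 to 387 higher and 167 to 203 lower by P and fold.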
